A study of Mus musculus with 40 samples.

Results

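The response of liver to 300 μmol/kg b.wt. D3T in the absence of Nrf2 was examined by comparing 4 Nrf2-null mice given D3T with 4 Nrf2-null mice given vehicle. These 8 mice were chosen by genotype and treatment as the sample labels give them, from 40 mice in 10 groups, with 1 Affymetrix expression array per liver. All were male, 12 weeks old and Nrf2-/- on the C57BL/6J background, a null allele carried in every tissue, and were fed an AIN-76A diet free of ethoxyquin. D3T was suspended in 10% Cremophor-EL, 10% DMSO and phosphate-buffered saline, which the vehicle mice received alone. Each mouse was gavaged every other day for 3 treatments over 5 days, and livers were collected 24 hours after the last one. The 8 Wt mice with the same treatments, of the same sex, age and diet, are shown beside them, and the Nrf2-null mice given CDDO-Im, a triterpenoid, appear as group means at 3, 10 and 30 μmol/kg. Replicates are separate mice. Expression is given as log2 intensity computed by the authors with GCRMA, and a change is the D3T mean minus the vehicle mean on that scale.

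Nrf2, encoded by Nfe2l2, is a transcription factor held in the cytoplasm and marked for degradation by Keap1. D3T, a dithiolethione, reacts with cysteines of Keap1, and the Nrf2 that then accumulates pairs with small Maf proteins at antioxidant response elements near genes for conjugation, reduction, glutathione and export. Liver is rich in the products of these genes. What a dithiolethione does to hepatic transcripts when Nrf2 is missing is the question of this comparison.

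The genotype was visible in the arrays. One Nfe2l2 probe set (1416543_at) read log2 2.72 to 3.01 in the Nrf2-null vehicle mice and 2.79 to 2.87 in the Nrf2-null D3T mice, against 11.07 to 11.73 and 10.94 to 11.65 in the Wt groups (exact two-sided permutation tests, p = 0.029 each, the smallest that 4 mice against 4 allow). The other probe set (1457117_at) overlapped between genotypes, at 6.37 to 7.29 and 5.96 to 7.34 in Nrf2-null mice and 6.28 to 6.48 and 5.67 to 6.43 in Wt mice (exact p = 0.11 and 0.14). Hepatocyte markers such as Alb, Ttr and Apoa1 dominated every liver, the mean level of the 10 measured markers lying between log2 15.12 and 15.43 in the 8 mice.

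The Nrf2-null groups were less uniform than the others. The median standard deviation within a group was log2 0.223 for vehicle and 0.199 for D3T, against 0.143 to 0.162 in the other 8 groups of the series. D3T replicate 4 stood apart. It correlated with its own group at a mean of 0.961, below the 0.974 to 0.992 of the other 39 mice, and lay far from its group in 945 genes (9.75% of those tested), where far means that the gap to the nearest of the other 3 mice took more of the range of the group than the 95% critical value of Dixon's test. The other 39 mice were far in 107 to 352 genes. In this mouse the acute phase genes were high (mean of the list log2 13.85, against 12.2 to 12.5 in the other D3T mice and 11.88 to 12.62 with vehicle) and the male-biased genes low (9.81, against 11.42 to 12.08 and 11.67 to 12.07). Vehicle replicate 1 differed in the clock genes. The mean level of 9 evening genes such as Dbp and Per2 minus that of 5 morning genes such as Arntl and Npas2 was log2 2.88 in this mouse and -3.3, -2.68 and -3.49 in the other vehicle mice, while the D3T mice had -1.79, -2.26, -1.51 and 1.02. Results are therefore given with and without these 2 mice. Both were set apart by the values of these same arrays, so changes and adjusted p without them are descriptions. The animal numbers in the labels of the D3T mice and of the vehicle mice formed separate ranges, so that whatever the numbers stand for and the treatment cannot be told apart.

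**Figure D1:**
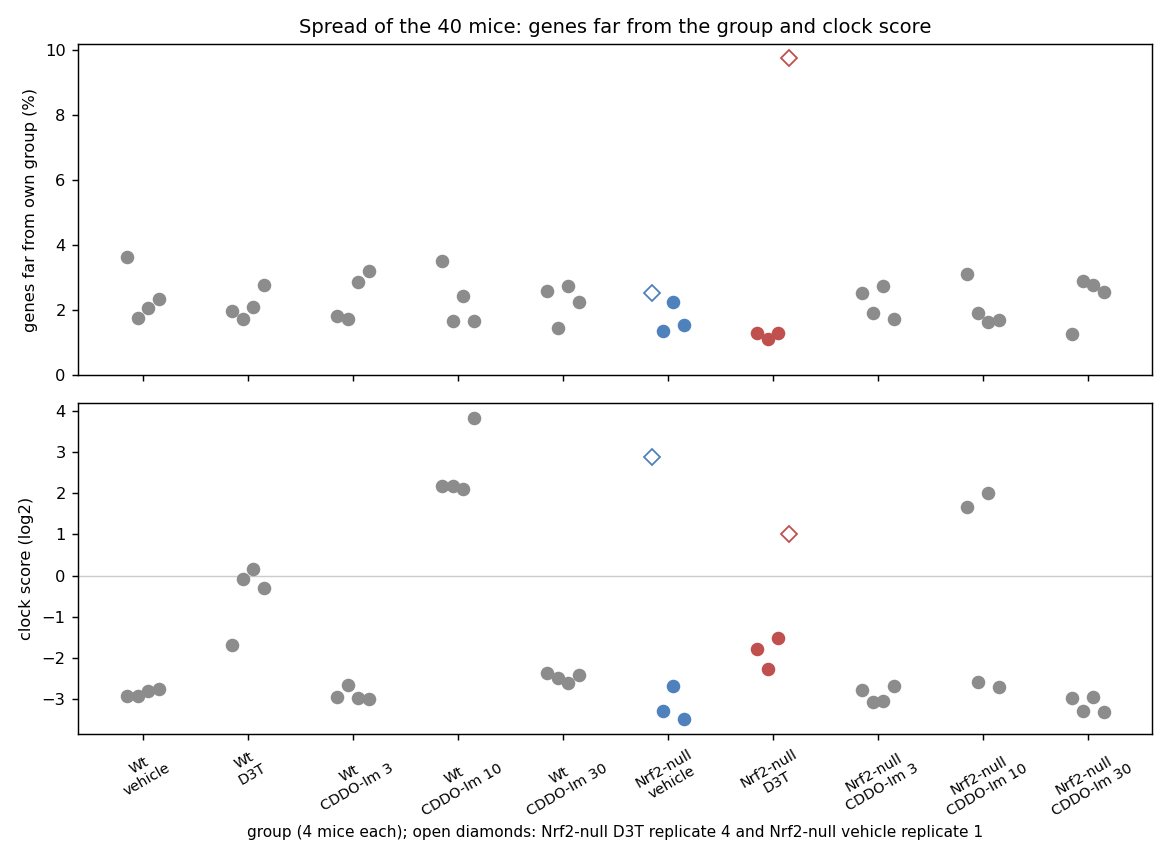
Upper panel, share of the 9695 genes in which a mouse lay far from the other 3 of its group (%). Lower panel, evening minus morning clock genes (log2). Each point is 1 of 40 mice by group, 4 mice per group. D3T replicate 4 reaches 9.75% in the upper panel, while vehicle replicate 1 at 2.88 and D3T replicate 4 at 1.02 lie above the other Nrf2-null vehicle and D3T mice in the lower one.

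D3T changed 397 of 9695 genes in Nrf2-null liver (4.09%; limma, Benjamini-Hochberg adjusted p under 0.05), with 220 higher (2.27%) and 177 lower (1.83%) after D3T. Lipogenic Acaca and Elovl6, the apolipoprotein gene Apoa4 and the nucleotidyl transferase gene Dntt were among the rises. The deiodinase gene Dio1, the bile acid enzyme gene Cyp8b1 and the taurine enzyme gene Csad were among the falls. The spread behind these calls was pooled over the 10 groups. With the 8 arrays alone 0 genes passed by limma (808 at an unadjusted p under 0.05, smallest adjusted p 0.19), and with the 20 Nrf2-null arrays alone 88 passed (43 higher, 45 lower), so the calls rest on the spread of mice outside the comparison. That spread was smaller, with a median SD of 0.143 to 0.162 against 0.223 and 0.199 in the compared groups. For a typical gene the pooled SE and adjusted p, here and below, are thus likely too small for this comparison. Leaving out D3T replicate 4 gave 604 genes (6.23%), 383 higher (3.95%) and 221 lower (2.28%). Leaving out vehicle replicate 1 gave 328 higher (3.38%) and 305 lower (3.15%), together 6.53%. Leaving out both gave 858 (8.85%), 522 higher (5.38%) and 336 lower (3.47%). Without D3T replicate 3 the count was 198, and without vehicle replicate 3 it was 260.

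The 4 D3T mice did not overlap the 4 vehicle mice in 514 genes (5.3%), 256 of them higher (2.64%) and 258 lower (2.66%), and 227 of these were also called. Of the 397 called genes, 115 were called in each of the 8 fits that left out 1 of the mice (51 higher, 64 lower), and 224 were called in the fits without D3T replicate 4, without vehicle replicate 1 and without both. A change of 1.5-fold or more was seen for 164 of the called genes, 74 higher and 90 lower. The 12 largest rises and 12 largest falls among called genes without overlap and with a mean of log2 5 or more in a group are called the leading genes. The filter on low values was passed only through the D3T group by 12 genes, of which 4 were called higher, and only through the vehicle group by 9, of which 1 was called lower. Such genes had to differ, and Dntt, Adh7 and Nfe2 are of the first kind.

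Dntt was among the leading rises. This gene, whose product adds nucleotides to antigen receptor genes in developing lymphocytes, read log2 5.98, 6.33, 6.79 and 6.62 with D3T and 3.16, 4.24, 2.99 and 4.93 with vehicle (change 2.60, SE 0.43, adjusted p = 5.6e-04). All 4 D3T mice lay above all 4 vehicle mice, 2 of which were below the expression minimum of log2 4. It passed the filter through the D3T mice alone, so its change is a description. Its second probe set rose by 3.05. In Wt liver Dntt was at 6.02, 6.13, 3.94 and 2.99 with D3T and 2.88 to 2.98 with vehicle (change 1.83, adjusted p = 0.012), so that 2 mice carried the Wt rise and 1 was at the vehicle level. Scara5, encoding a scavenger receptor that takes up ferritin, had the largest change of the leading genes, 3.28 (SE 0.83, adjusted p = 0.022). Its values were 8.71, 8.09, 8.04 and 9.58 with D3T and 3.41, 7.95, 4.12 and 5.82 with vehicle, so the lowest D3T mouse was only slightly above vehicle replicate 2. The call was lost without vehicle replicate 1 (adjusted p = 0.062), vehicle replicate 3 (0.077) and without both mice (0.12), and in Wt liver the change was -1.32 (adjusted p = 0.42).

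Apoa4, an apolipoprotein of intestinal and hepatic lipoproteins, rose by 1.91 (SE 0.40, adjusted p = 0.0057), from 11.94, 11.91, 10.31 and 12.16 with vehicle to 13.03, 13.09, 13.58 and 14.24 with D3T. The vehicle group was held wide by replicate 3. Cyp26a1, which hydroxylates retinoic acid, rose by 1.51 (SE 0.42, adjusted p = 0.036), with 9.96, 9.69, 9.07 and 9.36 against 8.35, 8.32, 7.69 and 7.66. Adh7, an alcohol dehydrogenase that also acts on retinol, rose by 1.26 (SE 0.25, adjusted p = 0.0037). Its value of 6.67 in D3T replicate 4 lay well above the 4.43, 4.78 and 4.69 of the other D3T mice, all of which still exceeded the 3.52 to 4.27 of the vehicle mice, a level close to the minimum of log2 4, and it too passed the filter through the D3T mice alone. The change of Adh7 is therefore a description, as for Dntt. Cyp26a1 remained called without D3T replicate 4, without vehicle replicate 1 and without both. It lost its call without D3T replicate 1, 2 or 3 or vehicle replicate 3 or 4 (adjusted p = 0.051 to 0.091).

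Atp6v0d2, a subunit of the vacuolar proton pump, rose by 1.49 (SE 0.41, adjusted p = 0.033), with 7.47, 7.38, 8.42 and 7.71 against 6.49, 6.4, 5.85 and 6.3. Rnd2, a small GTPase, rose by 1.32 (SE 0.23, adjusted p = 0.0012), with 7.21, 7.08, 7.95 and 7.39 against 6.76, 6.16, 5.77 and 5.64. Both rose in Wt liver too, by 2.27 and 1.45 (adjusted p = 0.0013 and 2.6e-04). The other rises without overlap were those of Tmem71 (1.33), Mmp19 (1.24), Ints10 (1.16) and Tmem268 (1.15, adjusted p = 1.1e-04). Mmp19, a matrix metalloproteinase gene, had a second probe set that did not move with the first (-0.07). The Tmem71 call was lost without D3T replicate 4 (adjusted p = 0.073), vehicle replicate 3 (0.087) and without both mice (0.092), and the Atp6v0d2 call without D3T replicate 3 (0.12) or vehicle replicate 2, 3 or 4 (0.051 to 0.093).

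**Figure D2:**
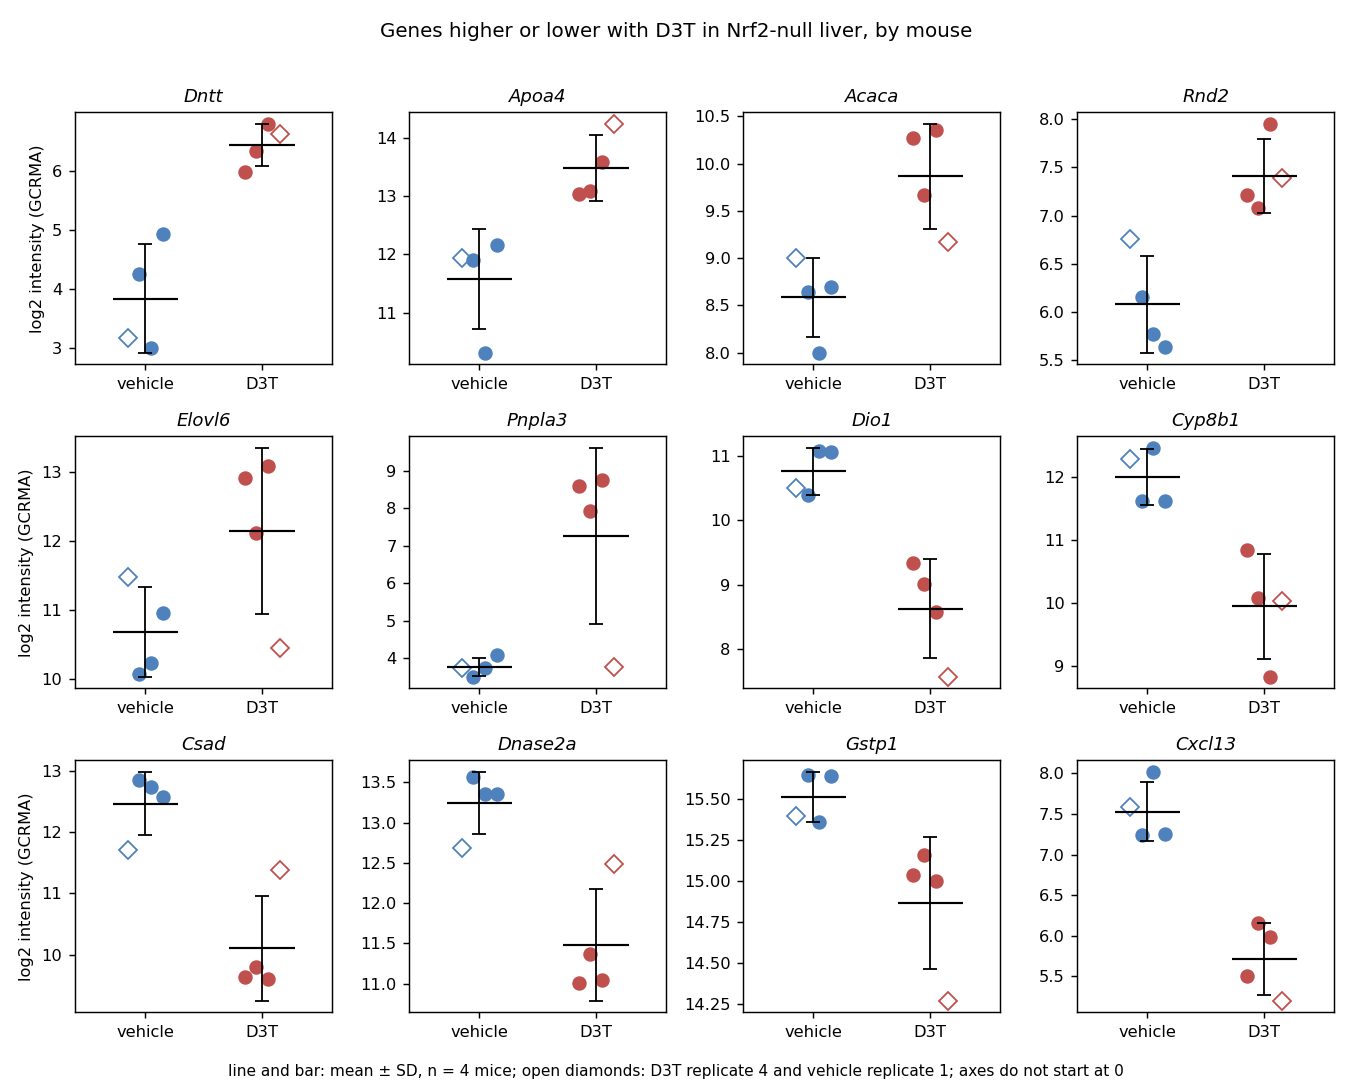
log2 intensity of 12 called genes in each Nrf2-null mouse with vehicle (blue) and D3T (red). Lines are means and bars SD of 4 mice, open diamonds are vehicle replicate 1 and D3T replicate 4, and axes do not start at 0. The 4 D3T mice clear the 4 vehicle mice in 10 panels, whereas in Elovl6 and Pnpla3 D3T replicate 4 (10.45 and 3.77) lies within the vehicle range.

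Among genes of fatty acid and triglyceride synthesis, Acaca, Elovl6 and Pnpla3 rose. Of 22 measured members of this list, 3 rose, 0 fell and 19 did not pass the test, with a median change of 0.28 against 0 over all genes tested. The shares over all genes tested were 2.27% higher and 1.83% lower. Acaca, the acetyl-CoA carboxylase that makes malonyl-CoA, read 10.27, 9.67, 10.35 and 9.17 with D3T and 9.0, 8.64, 8.0 and 8.7 with vehicle (change 1.28, SE 0.22, adjusted p = 0.0012). All D3T mice were above all vehicle mice, although the second Acaca probe set changed by 0.28 (adjusted p = 0.53 over all probe sets). Elovl6, which lengthens palmitate, rose by 1.46 (SE 0.36, adjusted p = 0.018), with 12.91, 12.12, 13.09 and 10.45 against 11.47, 10.07, 10.23 and 10.96. Pnpla3, a lipid droplet protein gene driven by Srebf1, rose by 3.49 (SE 0.61, adjusted p = 0.0012), from 3.73, 3.51, 3.73 and 4.09 to 8.59, 7.93, 8.75 and 3.77. The Pnpla3 mean with vehicle was under the minimum of log2 4, so the size of its change depends on a level that may be background. In both genes D3T replicate 4 lay among the vehicle mice, and Elovl6 lost its call without D3T replicate 1 or 3 or vehicle replicate 2 or 3 (adjusted p = 0.058 to 0.092). The same was seen for Fasn, fatty acid synthase, at 13.71, 13.54, 13.88 and 10.54 with D3T against 12.49, 11.15, 10.98 and 11.8 (change 1.31, adjusted p = 0.11), and Acacb, at 10.38, 10.02, 10.12 and 6.8 against 9.29, 7.41, 7.99 and 8.68 (0.99, adjusted p = 0.25).

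Without D3T replicate 4 and vehicle replicate 1, 10 of the 22 members passed and all 10 were higher, with a median change of 0.57. Over all genes tested that fit called 5.38% higher. The 10 members were Srebf1, Acly, Acaca, Acacb, Fasn, Elovl6, Thrsp, Pnpla3, Gpam and Pklr. The change was then 4.65 for Pnpla3 (adjusted p = 7.6e-09), 2.40 for Fasn (1.5e-04), 2.29 for Elovl6 (7.8e-06), 2.14 for Acacb (1.6e-04) and 1.45 for Srebf1 (0.0013), the regulator of this pathway. D3T replicate 4 lay far below the other D3T mice in Pnpla3, Fasn, Acacb and Srebf1. Leaving it out thus narrows their spread and widens their change by construction, and these adjusted p are descriptions. Across the mice, the mean level of the list was 12.4, 12.17, 12.35 and 10.85 with D3T and 11.77, 11.14, 11.18 and 11.41 with vehicle.

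Cholesterol synthesis depended on the same mouse. Of 20 measured members 0 passed with all 8 mice (median -0.01), and without both mice 9 were higher and 0 lower (median 0.56). Over all genes tested 2.27% were higher with all mice and 5.38% without both. With all mice 10 members were above 0 and 10 below, and without both all 20 were above 0. The mean of the list was 11.72, 11.84, 12.01 and 9.47 with D3T and 11.39, 11.12, 10.84 and 11.59 with vehicle, D3T replicate 4 being the lowest of the 8. Lss, lanosterol synthase, had a change of 0.62 with all mice (adjusted p = 0.35) and 1.2 without both (0.0063), and Mvd of the mevalonate pathway had 1.22 (0.36) and 2.57 (0.0051). Insig1, which retains the Srebf proteins in the endoplasmic reticulum, had 0.34 (0.52) and 0.80 (0.0024). Cyp51, the lanosterol demethylase, had -0.22 (0.80) and 0.53 (0.12).

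Genes of fatty acid oxidation and targets of PPARa included 1 rise among 34, that of Slc25a20, the mitochondrial carnitine carrier, by 0.44 (SE 0.10, adjusted p = 0.0082), with 13.07, 12.77, 12.86 and 12.86 against 12.74, 12.12, 12.6 and 12.35. The second Slc25a20 probe set changed by 0.18 (adjusted p = 0.42 over all probe sets). The list had a median of -0.04. Over all genes tested 2.27% were called higher, and 1 of 34 is near that share. Angptl4, an inhibitor of lipoprotein lipase, had a change of -1.39 and Ppargc1b, a coactivator of lipid metabolism, of -1.14 (adjusted p = 0.11 and 0.069), and Acot3, a peroxisomal thioesterase, of 1.33 (0.25).

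Of 14 genes of bile acid synthesis and FXR, 1 passed, where 4.09% of all genes tested were called. Cyp8b1, which directs the pathway to cholic acid, fell by 2.06 (SE 0.38, adjusted p = 0.0024), from 12.3, 11.63, 12.47 and 11.63 with vehicle to 10.85, 10.08, 8.83 and 10.04 with D3T. All D3T mice lay below all vehicle mice, and the call remained without each of the 8 mice. The other 13 measured members of this list, among them Cyp7a1 (-0.20, adjusted p = 0.93), Cyp27a1 (0.00, 1.0) and Abcb11, the bile salt export pump (0.21, 0.59), did not pass the test. Without both mice 3 members were higher, Akr1d1, Slc10a1 and Abcb11 (0.58, adjusted p = 0.0065), and 2 lower, Cyp8b1 and Baat, so the calls beyond Cyp8b1 depend on these mice. Over all genes tested that fit called 5.38% higher and 3.47% lower.

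The largest fall among genes without overlap was that of Csad, which makes hypotaurine for taurine synthesis. It fell by 2.37 (SE 0.55, adjusted p = 0.013), from 11.71, 12.85, 12.73 and 12.58 with vehicle to 9.63, 9.8, 9.6 and 11.38 with D3T. Vehicle replicate 1 and D3T replicate 4 were nearest to each other, and without both the change was -3.05 (adjusted p = 0.0024). Dio1, the deiodinase that makes active thyroid hormone in liver, fell by 2.14 (SE 0.32, adjusted p = 2.4e-04), with 9.34, 9.01, 8.57 and 7.57 against 10.5, 10.39, 11.08 and 11.06. Dnase2a, a lysosomal DNase, fell by 1.76 (SE 0.36, adjusted p = 0.0056), with 11.01, 11.37, 11.05 and 12.49 against 12.68, 13.57, 13.36 and 13.36. For both genes every D3T mouse was below every vehicle mouse and the call held without each mouse in turn.

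Further falls without overlap were those of Gm14057, a predicted gene (-1.78, adjusted p = 0.0019), Etnppl, which breaks down phosphoethanolamine (-1.64, 0.0053), Adgrg3, an adhesion receptor (-1.48, 2.1e-04), Cyp2j9, a cytochrome P450 (-1.2, 0.016), and Arhgap9 (-1.14, 0.0059). Gpihbp1, which anchors lipoprotein lipase on capillaries, fell by 1.43 (adjusted p = 0.0089), with 8.95, 8.27, 8.22 and 5.95 against 8.96, 9.23, 9.2 and 9.71. Itga8, an integrin subunit of mesenchymal cells, fell by 1.33 (adjusted p = 0.0078), with 7.92, 7.06, 7.48 and 5.3 against 7.96, 8.23, 8.21 and 8.67. In these genes of nonparenchymal cells the nearest D3T and vehicle mice lay close together and D3T replicate 4 was the lowest.

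Cxcl13 and Cd74 fell. Cxcl13, a chemokine for B cells, fell by 1.81 (SE 0.44, adjusted p = 0.015), with 5.51, 6.16, 5.99 and 5.2 with D3T and 7.59, 7.24, 8.02 and 7.26 with vehicle, and the groups were well apart, although the call was lost without vehicle replicate 3 (adjusted p = 0.052). Cd74, the invariant chain of class II antigen presentation, fell by 1.65 (SE 0.45, adjusted p = 0.031), with 7.11, 7.48, 6.14 and 5.13 against 7.25, 7.92, 8.96 and 8.35. It overlapped between the groups and lost its call without D3T replicate 4 (adjusted p = 0.11), D3T replicate 3 (0.091), vehicle replicate 3 (0.12) or vehicle replicate 4 (0.067). It was the single call among 19 measured genes of interferon response and antigen presentation, whose median was -0.69. The calls of this list were 9 lower without vehicle replicate 1, 0 without D3T replicate 4 and 4 lower without both mice (Rsad2, Igtp, Irgm1 and Cd74). Over all genes tested 3.15%, 2.28% and 3.47% were lower in these fits. H2-Ab1 (-1.53), H2-Aa (-1.43) and Ifit1 (-0.98) did not pass (adjusted p = 0.067, 0.087 and 0.13). The mean level of this list was 9.17, 9.5, 8.99 and 8.46 with D3T and 9.07, 9.35, 10.93 and 9.72 with vehicle, so that it was vehicle replicate 3 that stood highest.

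Markers of Kupffer cells, the macrophages of liver, moved in the same direction. All 13 were below 0, with a median of -0.69, and C1qa, a complement component, fell by 1.03 (adjusted p = 0.027). The summed intensity of the 13 markers was log2 14.01, 14.25, 13.74 and 12.21 with D3T and 13.85, 14.2, 14.51 and 14.42 with vehicle. Only D3T replicate 4 and replicate 3 lay below the vehicle mice, and without both mice the median was -0.42, still with 1 call. Clec4f, Vsig4 and Cd5l, which define these cells, were between log2 9.83 and 12.42 in the other 7 mice, and 7.81, 9.20 and 10.15 in D3T replicate 4. Marco was near the floor of the array in all 8 mice. C1qa lost its call without D3T replicate 3 or 4 or vehicle replicate 3 or 4 (adjusted p = 0.053 to 0.10). Of 8 endothelial markers all were below 0 (median -0.43, without both mice -0.06) and 1 fell, Oit3 (-1.05, adjusted p = 0.037), which read 8.52, 8.29, 8.54 and 5.82 against 8.66 to 9.02. Oit3 lost its call without vehicle replicate 2, 3 or 4 (adjusted p = 0.059 to 0.083). The summed intensity of the endothelial markers was 12.54, 12.32, 12.28 and 10.88 with D3T and 12.39 to 12.71 with vehicle. The part of these cells in the falls of Cxcl13, Cd74, Gpihbp1 and Itga8 was not tested, and in whole liver fewer cells of a type and less RNA per cell cannot be told apart.

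The conjugation and reduction genes that Nrf2 is known for changed in both directions. Of 38 measured members 2 rose, 4 fell and 32 did not pass, with a median of -0.10, where 2.27% of all genes tested rose and 1.83% fell. With all mice 25 members were below 0 and 13 above. Without both mice 6 were higher (Gstt2, Gstt3, Mgst1, Akr1b8, Aldh1a7 and Ces1g) and 2 lower (Gstp1 and Aox1), the median was 0.12, and 15 were below 0 and 23 above, so the sign of the median depends on these mice. Over all genes tested that fit called 5.38% higher and 3.47% lower. Nqo1, the quinone reductase often used to read out Nrf2, was at 2.99, 3.1, 4.14 and 4.72 with D3T and 3.22, 3.32, 2.88 and 3.18 with vehicle (change 0.59, adjusted p = 0.31). Both Nrf2-null means were under the expression minimum of log2 4, and 2 D3T mice were above it. Gstm3, a glutathione transferase of the mu class, was at 7.88, 8.73, 9.15 and 8.2 against 8.65, 8.88, 8.18 and 8.8 (change -0.13, adjusted p = 0.89), and Gstm1 at 10.95, 10.46, 11 and 11.3 against 11.43, 11.33, 11.35 and 10.79 (-0.30, 0.49). The groups overlapped for each of these 3 genes. Genes of the mu class are similar in sequence, and probe sets may share signal among them. Gsta2 (0.42, adjusted p = 0.55), the carbonyl reductase gene Cbr1 (-0.02, 0.98) and the exporter gene Abcc4 (-0.43, 0.45) did not pass either.

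The members that did rise were Akr1b8, an aldo-keto reductase, by 1.29 (SE 0.33, adjusted p = 0.022), and Ces1g, a carboxylesterase, by 0.96 (SE 0.26, adjusted p = 0.027). Akr1b8 read 6.04, 5.62, 6.63 and 6.24 with D3T and 5.52, 3.19, 4.93 and 5.71 with vehicle, so the groups overlapped slightly. Its call was lost without D3T replicate 3 (adjusted p = 0.087) or vehicle replicate 2 (0.097), and that of Ces1g without any of D3T replicates 1 to 3 or vehicle replicate 2 or 4 (0.053 to 0.10). Gstp1, the pi class glutathione transferase, fell by 0.65 (SE 0.11, adjusted p = 0.0012), with 15.04, 15.16, 15 and 14.27 against 15.4, 15.65, 15.36 and 15.64. Here the D3T and vehicle mice did not overlap, and the call remained without each mouse. Aox1, an aldehyde oxidase, fell by 0.81 (adjusted p = 0.011), Gsta3, an alpha class transferase, by 0.61 (0.017) and Ephx1, the microsomal epoxide hydrolase, by 0.58 (0.019). The calls of Gsta3 and Ephx1 were lost without both mice (adjusted p = 0.053 and 0.062).

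**Figure D3:**
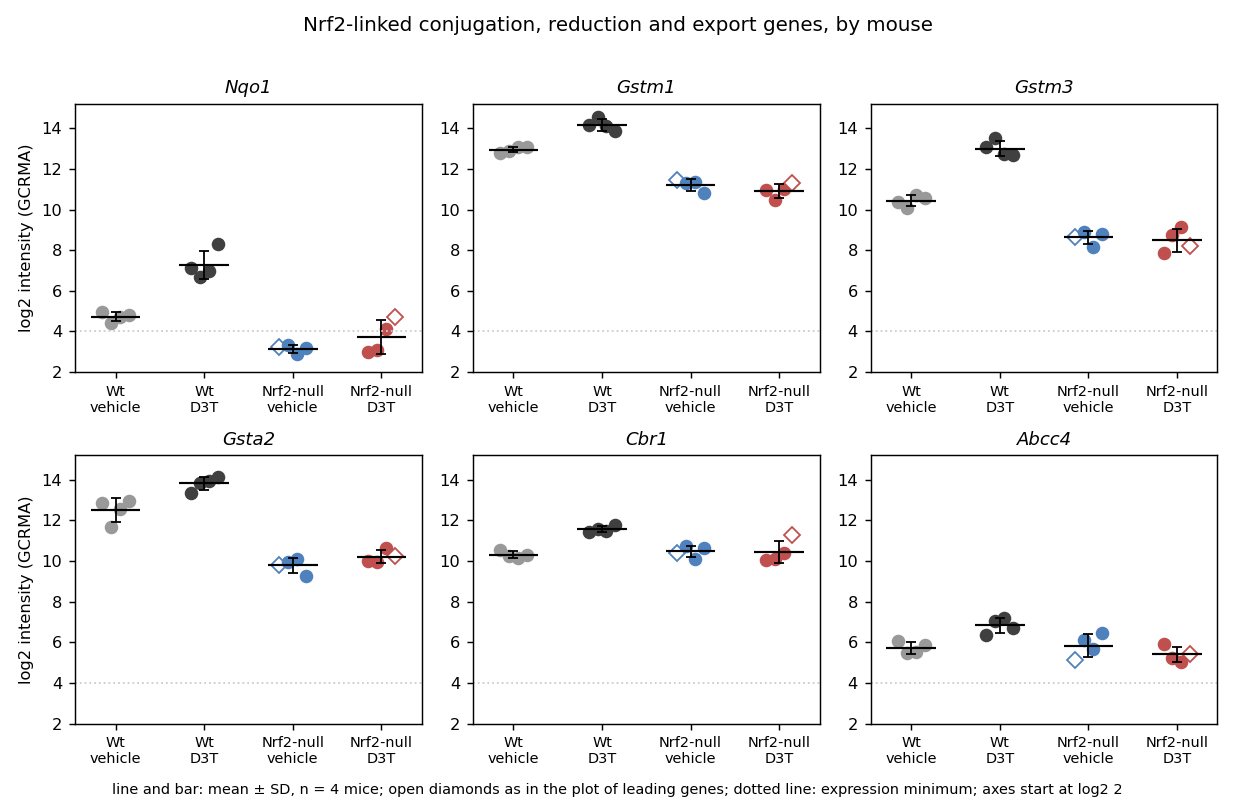
log2 intensity of 6 conjugation, reduction and export genes in each mouse of the Wt and Nrf2-null vehicle and D3T groups. Lines are means and bars SD of 4 mice, open diamonds are Nrf2-null vehicle replicate 1 and D3T replicate 4, the dotted line is the minimum of log2 4 and axes start at log2 2. Wt D3T mice lie above Wt vehicle mice in all 6 panels, while the Nrf2-null D3T and vehicle mice overlap.

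Other lists near the Nrf2 pathway held few calls, where 4.09% of all genes tested were called. Among 10 genes of Nrf2, Keap1 and their partners 1 was called higher, Nfe2, a relative of Nrf2 that pairs with the same small Maf proteins in blood cells. It passed the filter through the D3T mice alone and is described by its levels. It read 4.82, 6.53, 6.32 and 2.21 with D3T and 2.21, 2.23, 2.21 and 2.84 with vehicle, so 3 D3T mice were above a floor at which D3T replicate 4 and the vehicle mice lay. Keap1 itself had a change of -0.08 (adjusted p = 0.65). None of 18 genes of glutathione, thioredoxin and iron passed (median -0.07), among them Gclc (-0.41, adjusted p = 0.27), Hmox1 (-0.15, 0.88) and Txnrd1 (0.20, 0.23). Without both mice Gclm, Gss and Srxn1 were lower. None of 17 exporters, 17 genes of glucuronidation and sulfation, 6 of NADPH supply, 14 cytochromes and regulators of CAR and PXR and 4 targets of the aryl hydrocarbon receptor passed, with medians of -0.02, -0.15, 0.09, -0.07 and -0.02. Without both mice 3 exporters (Abcb11, Slco1b2 and Slc10a1), 2 genes of NADPH supply (Pgd and Tkt) and 2 of sulfation (Sult1b1 and Papss2) were higher, and Ugdh was lower. Over all genes tested that fit called 5.38% higher and 3.47% lower. Cyp2b10, a target of CAR, had a change of -1.3 (adjusted p = 0.13), while another of its probe sets changed by -2.28 (0.035 over all probe sets).

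Promoter windows of RefSeq (assembly GRCm38.p6, 300 bases around the start of a gene, most of them upstream) were searched on both strands for the core of the antioxidant response element, TGACNNNGC. It lay in 12.4% of all windows, in 14.5% of those of the genes tested, in 13.1% of those of genes called higher and in 21.5% of those of genes called lower. For the E-box CACGTG the shares were 7.15%, 10.2%, 11.7% and 8.29%, and for TNGCGTG, the core of the dioxin response element, 5.07%, 8.1%, 7.98% and 6.08%. These shares are descriptions and were not tested. Of the 12 leading rises, 6 had a window and 0 held the antioxidant core, while 9 of the 12 leading falls had one and 3 held it, and of the 6 called conjugation genes 1 did. Of the 7 genes whose response differed between genotypes 2 held it, Atp6v1a and Fam162a. The 4 windows printed are those of the leading falls and of the called conjugation gene that hold the core, which is given in capitals and reads as its reverse complement in Cyp8b1. They lie at chr9:121916256-121916555 on the minus strand (Cyp8b1), chr5:95956689-95956988 (Cxcl13), chr8:84908505-84908804 (Dnase2a) and chr1:21240335-21240634 (Gsta3) on the plus strand, and are written 5′ to 3′ along the gene. A match is not a site of binding.
Cyp8b1: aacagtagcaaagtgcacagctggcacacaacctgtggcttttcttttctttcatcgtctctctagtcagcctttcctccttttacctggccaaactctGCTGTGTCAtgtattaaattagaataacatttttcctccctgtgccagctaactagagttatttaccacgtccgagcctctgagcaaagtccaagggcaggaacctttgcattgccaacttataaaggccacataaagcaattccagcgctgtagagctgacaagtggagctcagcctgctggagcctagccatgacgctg
Cxcl13: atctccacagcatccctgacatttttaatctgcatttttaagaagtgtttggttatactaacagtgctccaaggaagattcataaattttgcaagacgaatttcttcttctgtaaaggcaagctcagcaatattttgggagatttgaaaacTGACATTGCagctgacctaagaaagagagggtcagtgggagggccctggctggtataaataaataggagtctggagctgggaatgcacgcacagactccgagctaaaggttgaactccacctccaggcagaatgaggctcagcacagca
Dnase2a: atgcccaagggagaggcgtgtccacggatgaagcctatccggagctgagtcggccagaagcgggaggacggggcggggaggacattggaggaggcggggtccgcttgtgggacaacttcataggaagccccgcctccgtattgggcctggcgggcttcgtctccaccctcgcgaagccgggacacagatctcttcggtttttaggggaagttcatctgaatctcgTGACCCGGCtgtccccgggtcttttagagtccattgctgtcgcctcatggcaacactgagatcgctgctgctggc
Gsta3: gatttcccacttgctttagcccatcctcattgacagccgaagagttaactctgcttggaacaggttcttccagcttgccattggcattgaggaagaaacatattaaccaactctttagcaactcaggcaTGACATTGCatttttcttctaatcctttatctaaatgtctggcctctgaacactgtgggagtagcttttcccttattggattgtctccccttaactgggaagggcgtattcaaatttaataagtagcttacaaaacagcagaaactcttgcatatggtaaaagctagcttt

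The remaining lists held at most 1 call each, where 4.09% of all genes tested were called. In the clock, Per2 rose by 2.02 (SE 0.59, adjusted p = 0.043), with 7.35, 7.38, 7.72 and 9.11 against 8.04, 5.95, 3.73 and 5.77, and vehicle replicate 1 overlapped with the D3T mice. The second Per2 probe set changed by 0.52 (adjusted p = 0.7 over all probe sets). Of 9 evening genes Per2 was the only call (median 0.38) and of 5 morning genes there was none (0.15), the call of Per2 being lost without D3T replicate 3 or 4 or vehicle replicate 2, 3 or 4 (adjusted p = 0.074 to 0.20). Among acute phase genes Orm1, a plasma glycoprotein, rose by 0.68 (adjusted p = 0.029), with 15.32, 15.36, 15.42 and 15.85 against 15.19, 14.79, 14.46 and 14.79. The 22 genes had a median of 0.27, and 0.04 without both mice. Lcn2, an iron-binding acute phase protein, had D3T values of 8.08, 8.18, 9.73 and 14.46 against 7.91, 7.65, 6.48 and 5.79 (change 3.15, adjusted p = 0.18). Of 15 genes of the integrated stress response and p53, Atf4 rose by 0.62 (adjusted p = 0.046), and of 5 fetal and tumour-linked genes Afp, α-fetoprotein, rose by 1.14 (0.048). Hspb1, a small heat shock protein, fell by 1.36 (0.042) among 23 chaperones, and Ndufa1 of complex I by 0.24 (0.015) among 28 respiratory chain genes. Asgr1, the asialoglycoprotein receptor, rose by 0.30 (0.049) among 10 hepatocyte markers, and Alas2, the heme enzyme of erythroid cells, fell by 1.03 (0.0057) of 2 red cell markers. Except for Alas2, these single calls were each lost without 2 to 6 of the 8 mice in turn, those of Ndufa1 without D3T replicate 3 (adjusted p = 0.053) or vehicle replicate 2 (0.062), and the highest adjusted p was 0.11 for Orm1 without vehicle replicate 3, 0.16 for Atf4 without D3T replicate 2, 0.18 for Afp without D3T replicate 3, 0.14 for Hspb1 without D3T replicate 4 and 0.20 for Asgr1 without vehicle replicate 4.

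No member passed among 15 genes of glycolysis and gluconeogenesis, 15 of the urea cycle and amino acids, 32 of the proteasome, 11 of the cell cycle, 10 of the glucocorticoid response, 4 of DNA methylation, 16 male-biased and 6 female-biased genes. Their medians were -0.03, -0.08, -0.06, 0.30, -0.29, 0.15, -0.29 and -0.01. The same held for 8 stellate cell markers (median -0.09), 3 of lymphocytes (-0.49), 3 of exocrine pancreas (0.21), 2 of bile duct (-0.21), 2 of neutrophils (1.45) and 1 of kidney and gut epithelium (0.49), and no marker of adipocytes or muscle was measured. Over all genes tested 4.09% were called. The neutrophil markers S100a8 and S100a9 read 6.92, 7.17, 8.4 and 9.18 and 5.21, 5.76, 6.58 and 7.7 with D3T, against 4.67 to 7.91 and 4.07 to 6.8 with vehicle. Without both mice, when 3.47% of all genes were called lower and 5.38% higher, 7 of 32 proteasome genes and 4 of 23 chaperone genes were lower and 4 of 15 genes of glycolysis and gluconeogenesis were higher, Pklr by 1.61 (adjusted p = 0.0016), while Pck1, which starts gluconeogenesis, changed by -1.91 (0.0021). The probe sets of Pck1 did not move together. With all mice this one changed by -1.3 and the others by -1.92 and 0.16 (adjusted p = 0.05 and 0.82 over all probe sets).

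**Figure D4:**
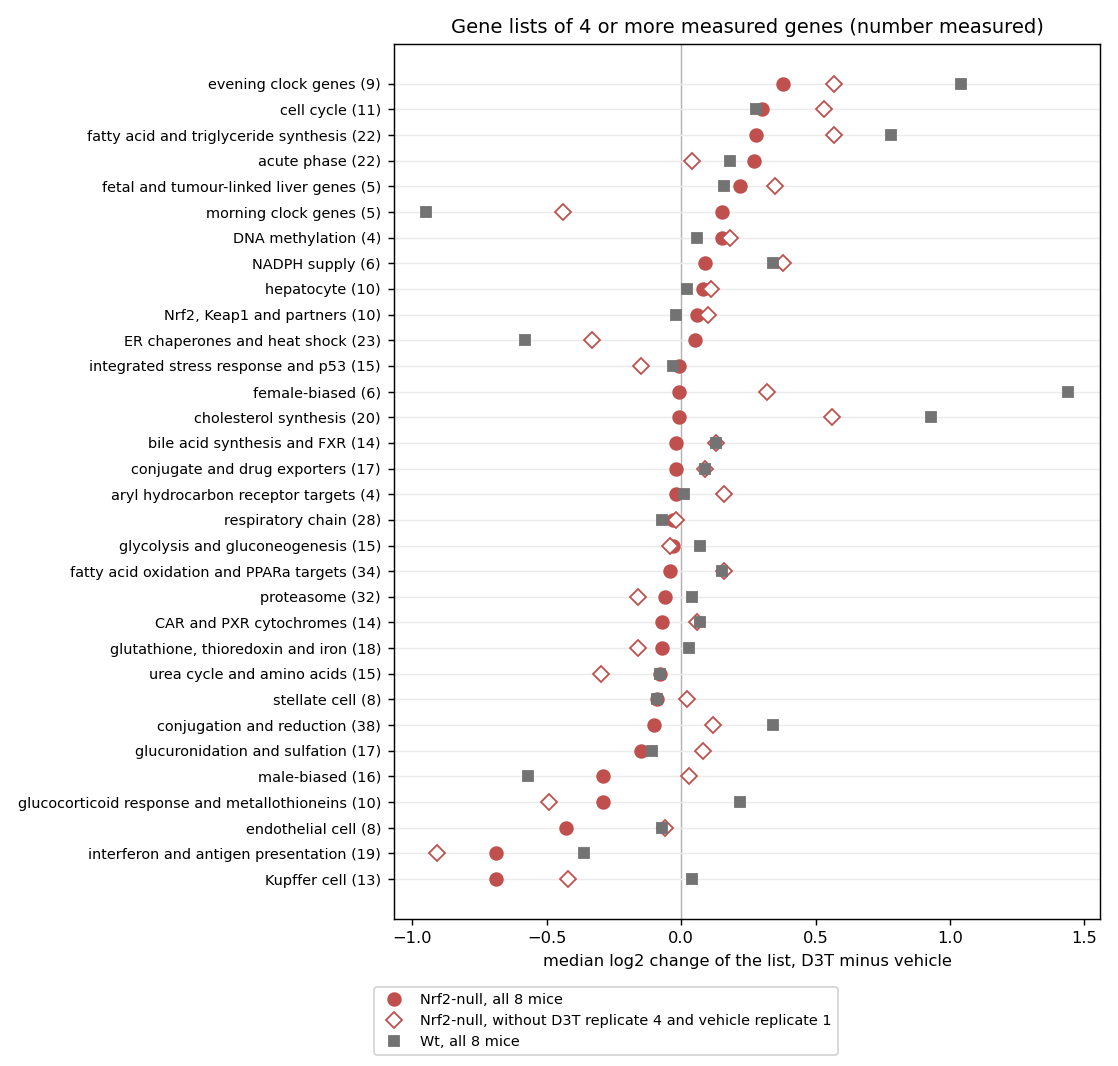
Median log2 change with D3T over the measured members of each list with 4 or more members, the number measured in parentheses. Red points are the Nrf2-null comparison with 8 mice, open diamonds the same without D3T replicate 4 and vehicle replicate 1, and grey squares Wt liver. Cholesterol synthesis moves from -0.01 to 0.56 and fatty acid synthesis from 0.28 to 0.57 when both mice are left out, while the interferon list stays below 0 (-0.69 and -0.91).

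The Wt comparison shares no mouse with the Nrf2-null one and called 410 genes (4.23%), 256 higher (2.64%) and 154 lower (1.59%). Called in both were 52 genes, 13.1% of the Nrf2-null and 12.7% of the Wt calls. Of these, 37 were higher in both, 15 lower in both and 0 opposite. The animal numbers of the Wt D3T and Wt vehicle mice formed separate ranges too. Shared changes thus cannot be told apart from whatever the numbers stand for. The mean of evening minus morning clock genes was -0.47 with D3T and -2.85 with vehicle in Wt liver. In Nrf2-null liver it was -1.13 and -1.65. The part of the clock in the shared calls was not tested. Without both Nrf2-null mice the shared calls of the same direction were 202, with 1 opposite. In that fit the Wt calls were 744 although no Wt mouse was removed, so the shares, 23.5% of 858 and 27.2% of 744, are of other lists. The shared rises included Apoa4, Atp6v0d2, Rnd2, Acaca, Elovl6, Afp, Acsl3, an acyl-CoA synthetase, and Gbe1, the glycogen branching enzyme. Acaca rose by 1.28 in Nrf2-null and 1.36 in Wt liver (adjusted p in Wt 3.4e-04), Elovl6 by 1.46 and 1.84 (0.0027) and Apoa4 by 1.91 and 2.27 (9.3e-04). The shared falls included Dio1 (-2.14 and -1.84, adjusted p in Wt 8.0e-04), Etnppl (-1.64 and -1.26, 0.029), the interferon-induced chemokine gene Cxcl10 (-1.26 and -1.14, 0.036) and Lifr, a cytokine receptor (-1.18 and -1.17, 0.030). Acsl3, Gbe1, Cxcl10 and Lifr were picked after their values were seen, and the Nrf2-null calls of Acsl3 and Lifr were lost without vehicle replicate 1 (adjusted p = 0.091) and without D3T replicate 4 (0.11). The 220 genes called higher in Nrf2-null liver had a median change of 0.49 there and 0.18 in Wt liver, and the 177 called lower had -0.59 and -0.16. The 256 genes called higher in Wt liver had a median of 0.63 there and 0.22 in Nrf2-null liver, where 210 were above 0. Each set was chosen by its change in 1 genotype, so a smaller median in the other follows at least in part from the choice. In the conjugation list 11 members rose in Wt liver and none of them was called in Nrf2-null liver. Since only 4.09% of all genes tested were called there, 0 of 11 is near that share and does not show a lost response. By the test of the difference 2 of the 38 measured members passed, Gstm1 and Gstm3.

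Whether a response differed between genotypes was tested as the difference of the changes, which 7 genes passed (0.0722%), 3 with a higher (0.0309%) and 4 with a lower change in Nrf2-null liver (0.0413%). Gstm3 (difference -2.69, adjusted p = 0.035) and Gstm1 (-1.51, 0.049) rose in Wt liver by 2.56 and 1.21, with Wt D3T mice at 12.69 to 13.5 and 13.86 to 14.54 against 10.1 to 10.72 and 12.8 to 13.08 with vehicle. Nqo1 had a difference of -1.95 (adjusted p = 0.055), which passed without D3T replicate 4 (-2.28, 0.021). The other 5 genes had smaller differences. Atp6v1a, a subunit of the vacuolar proton pump, fell by 0.47 in Nrf2-null liver, with 10.2, 10.3, 10.3 and 10.28 against 10.79, 10.79, 10.68 and 10.69, and changed by 0.07 in Wt liver (difference -0.54, adjusted p = 0.035), although its second probe set changed by -0.18. Its Nrf2-null means with 3, 10 and 30 μmol/kg CDDO-Im were 10.34, 10.28 and 10.42, near the 10.27 with D3T. The vehicle mean of 10.74 stood above all other Nrf2-null groups, so the lower level was not particular to D3T. Fam162a, a mitochondrial protein gene, fell by 0.26 against 0.15 in Wt (-0.40, 0.035). Dedd, a death effector domain gene, rose by 0.31 and Endog, a mitochondrial nuclease, by 0.48, each against -0.17 in Wt (0.47, 0.035 and 0.65, 0.049). Ppig, a cyclophilin, was 0.19 against -0.41 (0.60, 0.049), although its other probe sets changed by -0.34 and 0.13 in Nrf2-null liver. The genes with the largest Nrf2-null changes had wide errors in this test. For Pnpla3 the difference was 2.68 (adjusted p = 0.19), for Scara5 4.60 (0.081) and for Gm14057 -1.99 (0.055), so a difference between genotypes was not shown for any of the 3. Each of the 7 was lost without 5 to 11 of the 16 mice in turn (adjusted p = 0.05 to 0.12). The count was 53 (0.547%) without D3T replicate 4 and 49 without both mice, while it was 0 without D3T replicate 2, Wt D3T replicate 1 or 2, or Wt vehicle replicate 1 or 2.

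**Figure D5:**
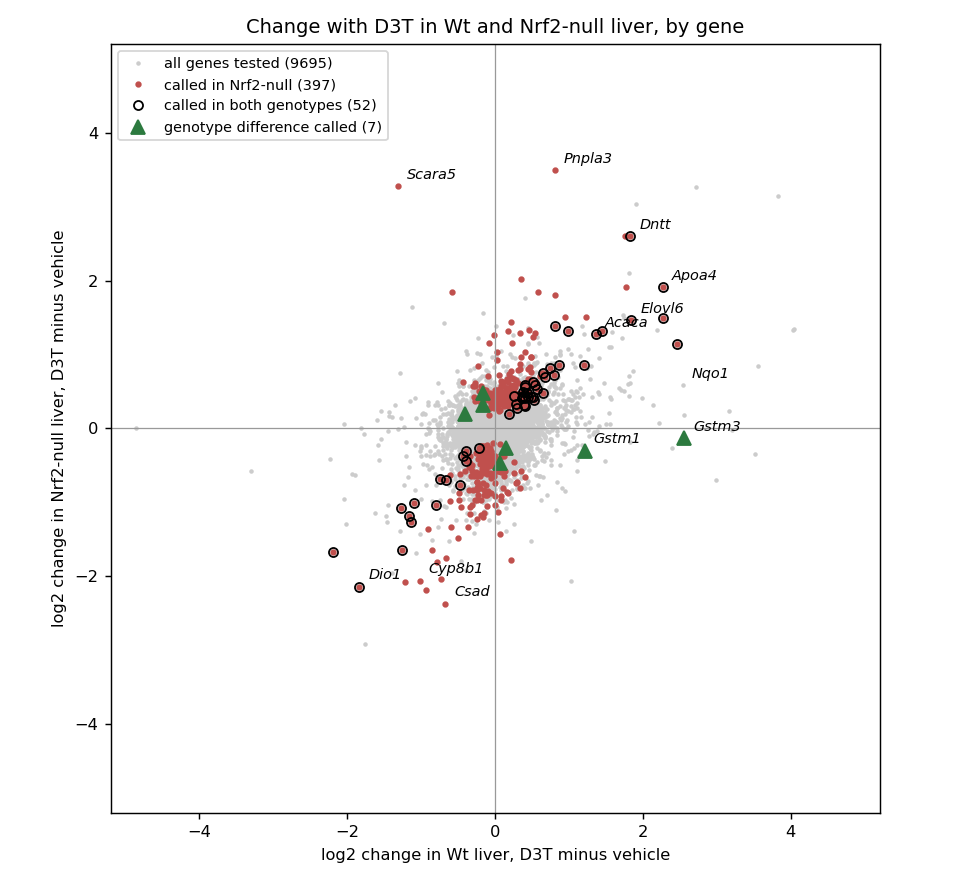
Change with D3T in Wt liver (horizontal, log2) and in Nrf2-null liver (vertical, log2) for 9695 genes. Red points were called in Nrf2-null liver (397), black rings in both genotypes (52), and green triangles are the 7 genes whose changes differed between genotypes. Acaca, Elovl6, Apoa4, Dntt and Dio1 changed alike in sign in both, whereas Gstm3 and Gstm1 lie near 0 on the vertical axis at 2.56 and 1.21 on the horizontal one.

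The other Nrf2-null groups are given beside these genes. Their comparison with vehicle would share the vehicle mice, so only levels are given. For Cyp26a1 the mean was 9.52 ± 0.39 with D3T (SD, n = 4) and 8.01 ± 0.38 with vehicle. With CDDO-Im it was 9.66 ± 0.17 at 3 μmol/kg, 8.52 ± 1.64 at 10 and 8.06 ± 0.37 at 30, so only the lowest dose matched D3T. For Dntt the D3T mean was 6.43 ± 0.35 and the other 4 means were 2.90 to 3.83. For Dio1 it was 8.62 ± 0.77 against 10.53 to 11.23, and for Csad 10.10 ± 0.86 against 12.04 to 12.97. These genes were chosen for their distance from vehicle, so the distances are descriptions.

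The study singles out 39 genes in its text or by PCR, and 37 of them were measured here. Of these 2 rose, 0 fell and 35 did not pass the test. Over all genes tested 2.27% were called higher and 1.83% lower, so the counts are near those shares and do not set these genes apart. The rises were those of Acaca and of Syncrip, an RNA-binding protein, by 0.48 (adjusted p = 0.023), with 9.15, 8.88, 9.3 and 9.03 against 8.36, 8.63, 8.71 and 8.74. The Syncrip call was lost without vehicle replicate 1 (adjusted p = 0.063), D3T replicate 3 (0.096) and without both mice (0.060), and of its other 4 probe sets 1 changed by 0.63 and 3 by -0.15, -0.09 and -0.16. These genes were chosen by the study on arrays that include these 8.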

How the data were processed

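Total hepatic RNA of 40 mice (10 groups of 4, taken from the sample labels) was hybridised to Affymetrix arrays of the mouse genome after biotin labelling of amplified RNA. The authors deposited log2 expression values from GCRMA (background correction, quantile normalization and probe set summary). Software version and genome build: not given in the sources used here. Normalization forces the arrays to like distributions, so changes are relative to the other genes. Arrays have no read depth, and precision is limited by 4 mice per group.

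Of 45037 probe sets, 34945 had 1 gene symbol, 932 several and 9160 none, and 34741 were matched by gene ID to RefSeq (GRCm38.p6). A probe set was kept if 3 or more arrays of any group reached log2 4 (18935, of which 16472 with 1 symbol). Each of 9695 genes took the values of that kept probe set whose mean over all arrays was highest. Kept probe sets of 1 gene were called in opposite directions for 4 genes (Csnk2a1, Gna13, Hdlbp and Nfia).

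limma 3.58.1 in R 4.3.3 was fitted to all 40 arrays with a mean per group and moderated by a trend and robust estimation, with Benjamini-Hochberg adjustment over 9695 genes and a threshold of 0.05. A gene called is one below it. Replicate numbers were given in the labels but same-numbered mice did not deviate together (correlations 0.032, -0.222, 0.027 and -0.159), so no block was used. Python 3.11.15 with SciPy 1.17.1 and Matplotlib 3.10.9 gave the exact tests and figures. Sequences were those of RefSeq, in 300-base windows.

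Genes were named by rule: the 12 largest rises and 12 largest falls among called genes whose mice did not overlap and whose mean was log2 5 or more in a group, up to 10 genes whose response differed between genotypes, 2 to 4 members of each of 40 gene lists, called ones first, and the genes the study names. Gsta3, Ephx1 and members without a call such as Keap1, Cyp7a1, Gclc, Hmox1 and Alb were added after their values were seen. The groups, the gene lists and the rule were chosen with earlier results of these data known. The lists held 646 different genes, 483 of them measured. Alternatives covered the filter, the scaling, the samples fitted, array weights, a replicate block, a clock covariate, probe set choice and each mouse left out.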

Additional observations from a re-analysis of the deposited data

Results flagged for a closer look

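In 26 of 272 tests of a named gene or score within a group of 4 Nrf2-null mice, the outermost mouse was separated from the next by a larger part of the range of its group than the 95% critical value of Dixon's test, which chance passes in about 1 of 20. Over all genes tested the same rule was passed by 7.71% in the vehicle group and 13.5% in the D3T group. The count of 26 is near these shares and does not set the named genes apart. D3T replicate 4 was the outermost mouse in 15 of the 26 tests. Its share of the range was 0.902 for Acacb, 0.901 for Fasn, 0.919 for Srebf1, 0.836 for Pnpla3, 0.864 for Cyp51 and 0.836 for Mvd, all low and all of lipid synthesis. It was also low for Hsd3b5, a male-biased steroid enzyme (0.875), Oit3 (0.907) and Cd79b of B cells (0.859). It was high for Adh7 (0.843), Asns (0.847), Csad (0.887), Cyp17a1 (0.859), Ndufa1 (0.890) and Sox9 (0.894). D3T replicate 1 was high for Cela2a (0.873) and D3T replicate 2 low for Ppara (0.879). Vehicle replicate 1 was high for the clock score (0.873) and Epcam (0.960), vehicle replicate 2 low for Cela1 (0.848) and vehicle replicate 3 low for Apoa4 (0.863). Vehicle replicate 4 was low for Gstm1 (0.856) and Srebf2 (0.961) and high for Nfe2 (0.969), Psmb4 (0.846) and Ugt2b38 (0.852).

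The response to D3T differed between genotypes for 7 genes by the test of the difference, Nrf2-null minus Wt. It was lower in Nrf2-null liver for Gstm3 (-2.69), Gstm1 (-1.51), Atp6v1a (-0.54) and Fam162a (-0.40), and higher for Endog (0.65), Ppig (0.60) and Dedd (0.47). The adjusted p was 0.035 for Gstm3, Atp6v1a, Dedd and Fam162a and 0.049 for the other 3 (limma). The other probe sets of Dedd and Fam162a changed with D3T in Nrf2-null liver by 0.02 and -0.04, and those of Ppig by -0.34 and 0.13.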

How the results depend on the processing

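No named gene changed direction past its threshold under any alternative run. The 220 higher and 177 lower calls in Nrf2-null liver were 127 and 117 without the filter on low values, 356 and 305 with array weights, 74 and 90 with a 1.5-fold minimum, 49 and 60 by an exact Wilcoxon test with that minimum, 295 and 274 over every kept probe set, and 43 and 45 with the Nrf2-null arrays alone (402 and 200 without D3T replicate 4 and vehicle replicate 1). With the 8 compared arrays alone they were 0 and 0, without D3T replicate 4 then 7 and 6, and without both mice 4 and 2. The replicate number as a block gave 0 calls (599 at an unadjusted p under 0.05, smallest adjusted p 0.32). The mice shared only a number, and no D3T mouse correlated best with the vehicle mouse of its own number. Leaving out 1 mouse gave 90 to 383 higher and 108 to 305 lower calls, and both mice 522 and 336. In Wt liver the 410 calls were 243 without the filter, 1289 with array weights, 194 with the fold minimum, 260 with the clock score as a covariate and 144 to 353 without 1 mouse. The 7 genotype differences were 4 without the filter, with the mean of the probe sets or with the fold minimum, 2 without trend and robust variances, 1 with the compared arrays alone and 0 with the replicate block, against 14 over every kept probe set, 29 with arrays centred on their medians, 37 and 42 with quantile normalization of the compared groups and of all arrays, 63 with array weights, 49 without both mice and 0 to 53 without 1 mouse. The causes of these shifts were not tested, except that a fold minimum can only remove calls. Of the 48 named genes called, 46 kept the call with arrays centred, 47 with quantile normalization again, 48 with the clock covariate, 44 without both mice, 38 with array weights, 35 without the filter and 22 with the Nrf2-null arrays alone. The fits with the Nrf2-null arrays alone, the list counts without the mice and the clock covariate in Wt liver were chosen after seeing the data.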
